A study of Homo sapiens with 15 samples.

Results

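The proteasome subunit genes were followed in RPMI-8226, a long-established myeloma line of human origin, after exposure to KB528. Members were chosen by name: every gene row of the deposited expression table whose symbol is PSM, a letter from A to G and a number. This gave 48 of the 26364 gene rows. The name match used no measured value, but the members were chosen with earlier results of these data known. The treated groups received 100 nM KB528 for 1, 3, 6 or 24 h, and the comparison group received DMSO and was collected at 0 h. KB528 is described in the labels as an inhibitor of the lysine acetyltransferase activity of p300, a transcriptional coactivator. With 3 libraries for each of the 5 groups, 15 strand-specific mRNA libraries were made. All groups were the same line in the same serum-containing medium. The genotype label reads KB528 for the treated libraries and WT for the DMSO ones, and no genetic change is described. DMSO was sampled at 1 time, so KB528 and time in culture or handling cannot be told apart, and all comparisons against DMSO share the same 3 DMSO libraries. Whether libraries of a group were made from separate cultures is not stated in the labels. The p-values therefore measure a spread among libraries that may be technical.

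The 26S proteasome degrades proteins that carry ubiquitin chains. Its 20S core is a barrel of alpha and beta rings with the proteolytic sites inside, and its 19S cap has a base of ATPases that unfolds substrates and a lid that removes ubiquitin. Dedicated chaperones assemble both parts, and alternative activators can replace the 19S cap. In cells exposed to interferon, 3 immunoproteasome subunits replace the constitutive catalytic subunits and alter the peptides made for antigen presentation. Plasma cells and myeloma cells secrete large amounts of immunoglobulin and depend strongly on the proteasome, and proteasome inhibitors are used against myeloma.

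Levels are TPM, the share of each transcript in a library after correction for transcript length, scaled to a fixed total. The read depth behind them is not kept in TPM, so no counting interval is given. Markers of plasma cells were present in every library (7 of 7 genes at 1 TPM or more), with summed levels of 3696 to 3837 TPM in DMSO and 3519 to 3711 TPM at 1 h. The sum was 3289 to 3477 TPM at 3 h, 2697 to 2879 TPM at 6 h and 1914 to 1947 TPM at 24 h. Most of it was MZB1, with a mean of 2618 TPM in DMSO and 1172 TPM at 24 h. The 7 genes did not move together. MZB1, TNFRSF17 and XBP1 had their lowest mean at 24 h, SDC1, IRF4 and POU2AF1 at 6 h, and PRDM1 at 3 h. XBP1 had a mean of 697 TPM at 3 h, against 545 TPM in DMSO. Of the T cell markers 1 of 3 reached 1 TPM, and CD3D was listed at 0 in all 15 libraries. Their sum was 1.95 to 2.27 TPM in DMSO, 1.37 to 1.46 TPM at 6 h and 2.75 to 3.8 TPM at 24 h. Of the other lists, 1 of 3 myeloid, 1 of 2 erythroid, 2 of 2 epithelial and 0 of 2 fibroblast markers reached 1 TPM. The epithelial sum, nearly all EPCAM, was 100 to 105 TPM at 24 h, against 114 to 120 TPM in DMSO. The part of these markers in the results below was not tested. In bulk RNA, fewer cells of a type and less RNA per cell cannot be told apart. ERCC spike-ins took 9.35% to 16.6% of the TPM of a library.

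Proteasome genes were abundant in this line. Of the 48 members, 46 reached a mean of 1 TPM over the 15 libraries and were tested, and 32 of these had at least 100 TPM in DMSO. PSMA8, a testis-specific alpha subunit, and PSMB11, the catalytic subunit of the thymus, were at or near 0 in every library (at most 0.195 TPM for PSMA8 and 0.0195 TPM for PSMB11) and were not tested. Together the members took 9557 ± 304 TPM in DMSO, 9133 ± 98.7 TPM at 1 h, 9405 ± 456 TPM at 3 h, 10398 ± 192 TPM at 6 h and 9443 ± 116 TPM at 24 h (SD, n = 3 each). The subunits of one complex were not present at equal transcript levels. Among the 14 tested alpha and beta ring genes, the DMSO mean ran from 61.1 ± 3.07 TPM for PSMA5 to 915 ± 45.2 TPM for PSMB4, a 15-fold range. Among the 17 genes of the 19S base and lid it ran from 59.6 ± 5.52 TPM for PSMC6 to 524 ± 17.7 TPM for PSMD4, an 8.78-fold range. PSMA7, with 625 ± 26.9 TPM, followed PSMB4. The lowest tested members were PSMB8 and PSMB9, with 9.18 ± 0.134 TPM and 12.9 ± 0.704 TPM in DMSO. RefSeq names at least 1 pseudogene after 21 of the members (13 after PSMC1, 6 after PSME2), and the sources used here do not state how reads shared with such copies were counted, so the levels of these members are uncertain to that extent.

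The stretches before the start sites of 7 genes are shown because these genes carry the changes described most fully: the lid subunits PSMD11 and PSMD12, the assembly chaperones PSMD9 and PSMG4, and the immunoproteasome subunits PSMB8, PSMB9 and PSMB10. Each holds the 250 bases before the start site that RefSeq gives on GRCh38.p14, read on the strand of the gene, 5′ to 3′. The deposited levels were made on hg19, per the submitters' processing notes, and no coordinate was taken from them. Capitals mark matches, on either strand, to 4 motifs: TGACNNNGC, the core of the antioxidant response element bound by NRF1 and NRF2, the CCAAT box, the E-box CACGTG, and the core of the interferon-stimulated response element, TTTC and TTTC with any 2 bases between them. N is any base.
PSMD11, chr17:32444260-32444509, plus strand: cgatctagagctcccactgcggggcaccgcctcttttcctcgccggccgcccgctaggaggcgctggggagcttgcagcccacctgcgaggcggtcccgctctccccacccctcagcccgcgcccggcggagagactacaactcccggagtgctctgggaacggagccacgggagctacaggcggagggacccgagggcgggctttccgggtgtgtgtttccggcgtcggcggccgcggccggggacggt
PSMD12, chr17:67366578-67366827, minus strand: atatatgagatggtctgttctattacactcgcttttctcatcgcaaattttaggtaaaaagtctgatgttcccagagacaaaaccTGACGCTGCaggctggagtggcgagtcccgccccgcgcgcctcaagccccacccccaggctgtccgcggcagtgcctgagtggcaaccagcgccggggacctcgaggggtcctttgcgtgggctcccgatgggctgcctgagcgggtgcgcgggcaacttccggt
PSMD9, chr12:121888540-121888789, plus strand: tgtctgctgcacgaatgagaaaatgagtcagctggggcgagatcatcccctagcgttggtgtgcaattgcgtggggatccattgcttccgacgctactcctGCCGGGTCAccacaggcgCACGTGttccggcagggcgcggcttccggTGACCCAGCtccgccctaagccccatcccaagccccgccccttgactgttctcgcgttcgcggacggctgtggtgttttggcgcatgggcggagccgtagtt
PSMG4, chr6:3258697-3258946, plus strand: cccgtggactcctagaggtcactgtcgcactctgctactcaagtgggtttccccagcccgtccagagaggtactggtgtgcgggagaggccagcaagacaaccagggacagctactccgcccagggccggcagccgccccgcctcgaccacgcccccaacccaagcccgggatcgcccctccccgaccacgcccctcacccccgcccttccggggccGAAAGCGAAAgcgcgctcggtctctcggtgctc
PSMB8, chr6:32844680-32844929, minus strand: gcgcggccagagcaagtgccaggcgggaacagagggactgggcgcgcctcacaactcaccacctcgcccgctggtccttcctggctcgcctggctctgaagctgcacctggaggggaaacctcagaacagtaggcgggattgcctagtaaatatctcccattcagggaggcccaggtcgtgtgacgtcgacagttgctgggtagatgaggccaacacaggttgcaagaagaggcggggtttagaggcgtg
PSMB9, chr6:32853942-32854191, plus strand: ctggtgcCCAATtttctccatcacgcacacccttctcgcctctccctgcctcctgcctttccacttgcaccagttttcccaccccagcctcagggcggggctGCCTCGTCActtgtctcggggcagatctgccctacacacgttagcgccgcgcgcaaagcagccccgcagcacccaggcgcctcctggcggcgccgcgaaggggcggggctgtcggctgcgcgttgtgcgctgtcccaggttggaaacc
PSMB10, chr16:67936851-67937100, minus strand: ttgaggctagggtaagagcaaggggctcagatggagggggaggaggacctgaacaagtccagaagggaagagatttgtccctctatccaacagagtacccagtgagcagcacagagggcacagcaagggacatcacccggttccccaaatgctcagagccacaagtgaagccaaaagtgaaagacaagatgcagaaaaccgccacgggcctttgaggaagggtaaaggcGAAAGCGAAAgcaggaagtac
PSMD9 has 2 matches to TGACNNNGC and a CACGTG between them, PSMD12 has a match to TGACNNNGC, and PSMB9 has a match to TGACNNNGC and a CCAAT. PSMG4 and PSMB10 both hold gaaagcgaaa, a match to the interferon-stimulated core on the other strand, beginning 33 and 21 bases before the start site. PSMD11 and PSMB8 hold none of the 4 motifs in this window. These matches describe the sequence and are not binding sites.

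On the deposited TPM scale, more proteasome genes were called at 6 h than at the other times (35 of 46); with median-ratio scaling 27 were called at 6 h and 33 at 24 h. Each gene was tested as log2(TPM + 1) with limma over the 12002 genes that averaged 1 TPM or more, and a member is called higher or lower where its Benjamini-Hochberg adjusted p is under 0.05. At 1 h 1 of 46 members was higher and 4 were lower, against 15% and 7.57% of all genes tested. At 3 h 8 were higher and 10 lower, where 24.9% and 32.0% of all genes were called. At 6 h 27 were higher and 8 lower (58.7% and 17.4% of members), with 44.4% and 24.5% of all genes called higher and lower. At 24 h 14 were higher and 7 lower (30.4% and 15.2% of members), beside 56.1% and 15.2% of all genes. Single libraries moved some of these counts: without DMSO replicate 3 there were 5 higher and 11 lower at 1 h, and 13 of each at 24 h. At 1 h none was higher and 1 to 3 were lower without DMSO replicate 1 or 2 or without 1 h replicate 2 or 3. At 3 h 5 were higher and 10 lower without DMSO replicate 2, and 4 and 15 without 3 h replicate 2. The median log2 fold change of the 46 members, in order of time, was -0.063, -0.018, 0.19 and 0.0068. Over all genes tested it was 0.043, -0.042, 0.12 and 0.23. A moderated F test over the 4 times called 41 of the 46 (89.1%), where 93.6% of all genes were called; PSMA2, PSMA3, PSMA6, PSMA7 and PSMB3, all of the 20S core, were not called. The changes were small: over all 4 times single members lay between -0.79 (PSMG4 at 6 h) and 0.52 (PSME3 at 6 h) on the log2(TPM + 1) scale, on which the changes of the lowest members are understated.

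**Figure D1:**
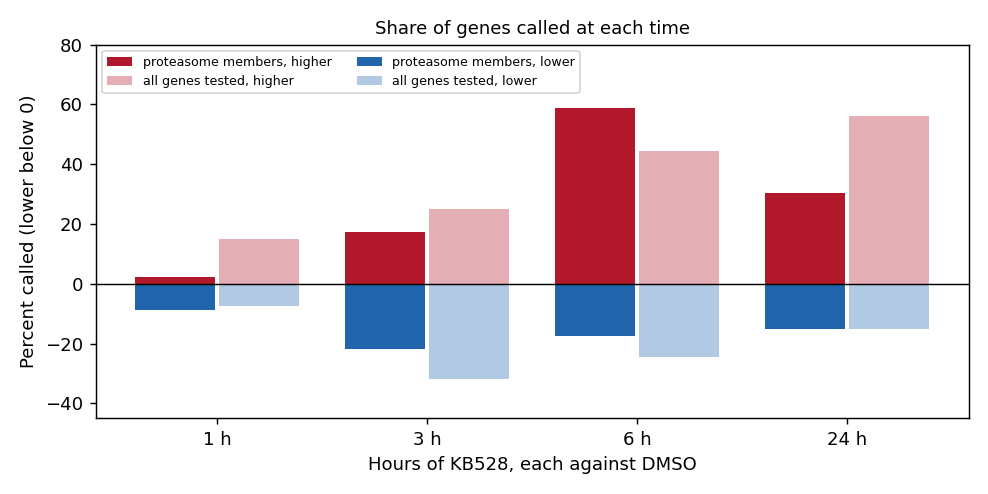
Percent of the 46 tested proteasome genes (dark bars) and of all 12002 genes tested (pale bars) called higher (above 0) or lower (below 0) than DMSO at each time of KB528, limma adjusted p under 0.05 on TPM as deposited. The dark bar exceeds the pale one for higher calls at 6 h (58.7% against 44.4%) and falls short of it at 24 h (30.4% against 56.1%); with median-ratio scaling the members at 24 h were 3 higher and 30 lower.

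The scale of the data bears on the small changes. TPM are shares of a library, and when libraries were instead scaled to their median gene ratio log2 fold changes against DMSO shifted by about -0.157 at 6 h and -0.201 at 24 h (-0.0535 at 1 h, 0.00353 at 3 h). On that scale 14 members were higher and 13 lower at 6 h, where 32.7% and 37.5% of all genes were called. At 24 h 3 were higher and 30 lower, where 37.1% and 29.9% were called. Scaling to the ERCC spike-ins shifted values by -0.0568, -0.224, 0.189 and -0.0173 at 1, 3, 6 and 24 h, but the spike-in factor varied between libraries of a group by an SD of 0.123 to 0.315. This scaling left 13 higher and 1 lower at 6 h, where 34.3% and 8.29% of all genes were called, and 1 lower at 3 h, where 3.42% of all genes were higher and 21% lower. Members have short transcripts, with a median of 1586 bases against 3173 bases over all genes tested. After a correction for transcript length the split at 6 h was 25 higher and 10 lower, beside 36.3% and 34.9% of all genes. That of 24 h was 2 higher and 30 lower, beside 34.9% and 32.7%. Called higher at 6 h on the deposited values and under all 4 of these scalings (median ratio, spike-in, length, and spike-ins left out of the total) were 12 members: PSMC2, PSMC3, PSMC6, PSMD2, PSMD6, PSMD11, PSMD12, PSMD14, PSMD9, PSME3, PSMF1 and PSMG3. PSMG4 was the member called lower at 6 h under all of them. The share of all genes called under all of these scalings was not counted, so the 12 cannot be set beside a background.

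**Figure D2:**
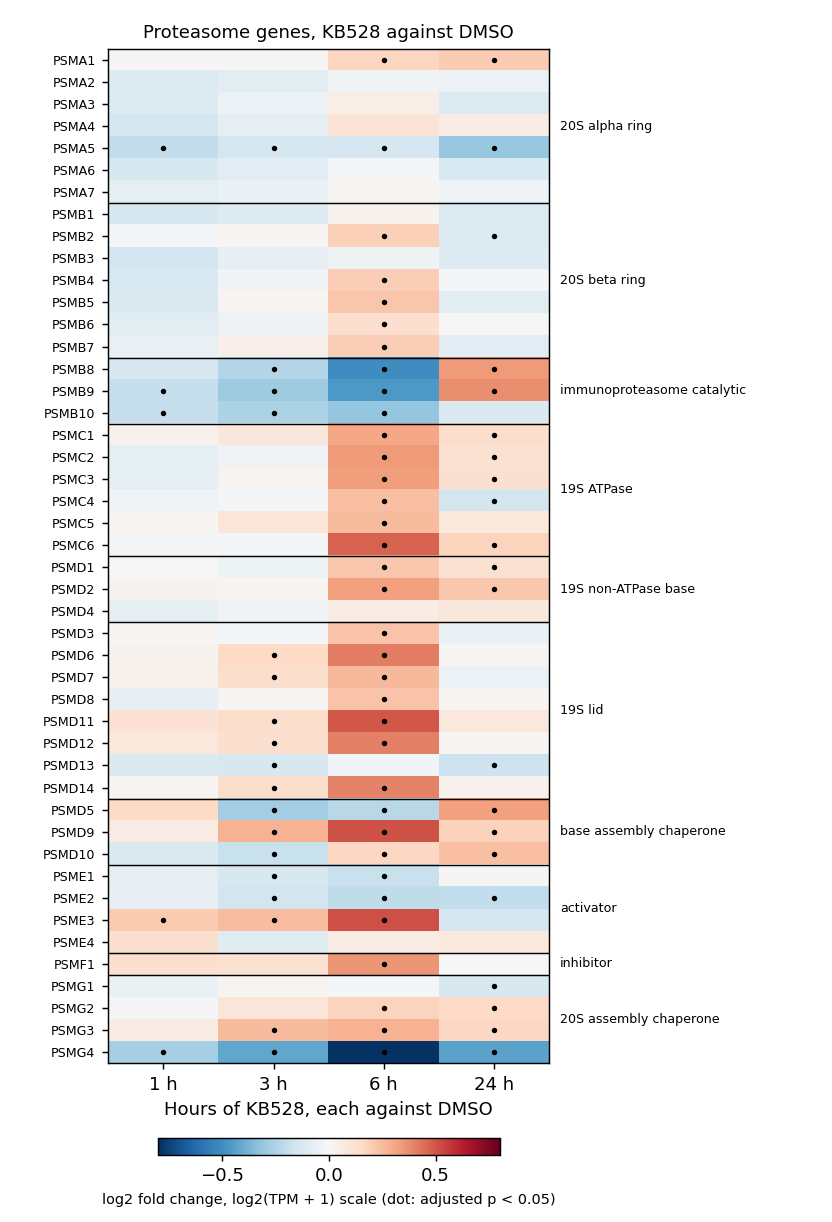
Log2 fold change against DMSO (colour, log2(TPM + 1) scale) of the 46 tested proteasome genes (rows, grouped by role) at 1, 3, 6 and 24 h of KB528 (columns); dots mark limma adjusted p under 0.05. All 6 ATPase genes and 7 of 8 lid genes are dotted red at 6 h, the 3 immunoproteasome genes are dotted blue at 3 and 6 h, and PSMG4 is dotted blue at every time; with median-ratio scaling 5 of the ATPase and 4 of the lid genes stayed higher at 6 h.

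The alpha ring, which gates entry to the core and docks the activators, had few calls. Of its 7 tested genes, 5 (PSMA2, PSMA3, PSMA4, PSMA6 and PSMA7) were called at none of the 4 times, with log2 fold changes between -0.14 and 0.11. PSMA5, which encodes the alpha5 subunit, was lower at all 4 times on the deposited scale, and at none of them with spike-in scaling (0.055 at 6 h). It had 64.0, 61.5 and 57.9 TPM in the 3 DMSO libraries, 54.5, 53.4 and 51.6 TPM at 1 h, 53.3, 60.6 and 52.0 TPM at 3 h, 56.3, 55.4 and 55.3 TPM at 6 h and 50.1, 48.7 and 49.0 TPM at 24 h. The libraries of 1, 6 and 24 h lay below all 3 DMSO libraries, and replicate 2 of 3 h lay among them. PSMA5 fell by 0.20 at 1 h (adjusted p = 0.0165) and by 0.30 at 24 h (SE 0.0537, adjusted p = 0.000133). Its calls at 3 h and 6 h (-0.14 and -0.13) were lost without DMSO replicate 1 (adjusted p = 0.132 and 0.155) or replicate 2 (0.0634 and 0.0788). The 3 h call was also lost with median-ratio scaling and the length correction, and without 3 h replicate 1 (0.118) or 3 (0.148), and the 6 h call without any library of 6 h (0.0597 to 0.0884). At 1 h the call was lost without DMSO replicate 1 (0.0744) or 1 h replicate 3 (0.0671). PSMA1 was higher at 6 h (0.17, adjusted p = 0.00466) and at 24 h (0.21, 0.00135), and neither call held with median-ratio or spike-in scaling.

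Most genes of the constitutive beta ring were higher at 6 h on the deposited scale, and none was called higher at the other times. Of its 7 genes 5 were called higher at 6 h (PSMB2, PSMB4, PSMB5, PSMB6 and PSMB7, log2 fold change 0.13 to 0.22), PSMB1 and PSMB3 were called at none of the 4 times, and at 24 h 1 was called, PSMB2, which was lower (-0.11, adjusted p = 0.0249). That 24 h call was lost without DMSO replicate 1 (0.0908) and without 24 h replicate 2 (0.0605) or 3 (0.0724). PSMB5, the chymotrypsin-like subunit and main target of the proteasome inhibitor bortezomib, had 121, 115 and 112 TPM in DMSO, 109, 104 and 108 TPM at 1 h, 114, 129.6 and 110.5 TPM at 3 h, 136, 136 and 136 TPM at 6 h and 104, 113 and 111 TPM at 24 h. All 3 libraries of 6 h lay above the DMSO libraries, and in those of 3 h replicate 2 stood above the other two. PSMB5 rose by 0.22 at 6 h (SE 0.054, adjusted p = 0.00183). PSMB6, the caspase-like subunit, had 284, 289 and 269 TPM in DMSO, 265, 266 and 257 TPM at 1 h, 263, 288 and 266 TPM at 3 h, 305, 307 and 309 TPM at 6 h and 271, 295 and 275 TPM at 24 h. Its rise at 6 h (0.13, adjusted p = 0.0153) was separated from DMSO in every library but was lost without DMSO replicate 3 (adjusted p = 0.0647). PSMB7, the trypsin-like subunit, had 519, 521 and 465 TPM in DMSO, 495, 482 and 466 TPM at 1 h, 494, 561 and 490.5 TPM at 3 h, 572, 579 and 571 TPM at 6 h and 464, 477 and 468 TPM at 24 h, and rose by 0.20 at 6 h (SE 0.0524, adjusted p = 0.0037). The 5 beta ring calls at 6 h were not made with median-ratio or spike-in scaling, and PSMB6 changed sign with median-ratio scaling (-0.025). Between 6 h and 24 h, 6 of the 7 were lower at 24 h, including PSMB5 (-0.31, adjusted p = 0.000107). Of these 6, PSMB1 and PSMB6 were lost without 24 h replicate 1 (0.0734 and 0.0767) or 3 (0.0663 and 0.0594), and PSMB1 also without 6 h replicate 2 (0.0504) or 3 (0.0839).

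The immunoproteasome genes went the other way from the constitutive ones at 6 h. PSMB8, PSMB9 and PSMB10 were lower at 3 h and 6 h (3 of 3 at each time), and at 24 h PSMB8 and PSMB9 were higher than DMSO, with each of the 3 keeping its sign but not its call under spike-in scaling. PSMB8, which replaces PSMB5, had 9.26, 9.26 and 9.03 TPM in DMSO, 8.12, 8.56 and 8.27 TPM at 1 h, 7.37, 8.32 and 7.30 TPM at 3 h, 5.95, 6.42 and 6.33 TPM at 6 h and 11.8, 12.3 and 11.7 TPM at 24 h. Every library of 1, 3 and 6 h lay below all DMSO libraries and every library of 24 h above them, although the 1 h value was not called (adjusted p = 0.116). PSMB8 fell by 0.49 at 6 h (SE 0.0566, adjusted p = 1.81e-06) and rose by 0.34 at 24 h (SE 0.0566, adjusted p = 7.14e-05). PSMB9, which replaces PSMB6, had 13.5, 13.2 and 12.1 TPM in DMSO, 11, 11.1 and 11.6 TPM at 1 h, 10.4, 10.9 and 10.0 TPM at 3 h, 9.01, 9.30 and 9.10 TPM at 6 h and 17.4, 17.7 and 16.2 TPM at 24 h. Its libraries were separated from DMSO at each time, below at 1, 3 and 6 h and above at 24 h. PSMB9 fell by 0.46 at 6 h (SE 0.055, adjusted p = 2.83e-06) and rose by 0.37 at 24 h (SE 0.055, adjusted p = 2.35e-05).

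PSMB10, which replaces PSMB7 and is far more abundant here than the other immunoproteasome genes, had 260.3, 261 and 239 TPM in DMSO, 227, 223 and 218 TPM at 1 h, 214, 221 and 201 TPM at 3 h, 195, 205 and 211 TPM at 6 h and 222, 240.1 and 239.7 TPM at 24 h. The libraries of 1, 3 and 6 h lay below those of DMSO, and those of 24 h overlapped them. PSMB10 fell by 0.31 at 6 h (SE 0.0492, adjusted p = 4.57e-05), and its 24 h value of -0.11 missed the threshold (adjusted p = 0.0506). The 1 h calls of PSMB9 (-0.18, adjusted p = 0.0253) and PSMB10 (-0.18, 0.0146) were both lost without DMSO replicate 1 (adjusted p = 0.0946 and 0.0592) or replicate 2 (0.0611 and 0.0587). PSMB9 at 1 h was also lost without 1 h replicate 1 (0.0862) or 2 (0.0774), and PSMB10 without 1 h replicate 3 (0.0554). From 3 h on the calls of the 3 genes against DMSO held under all alternatives other than spike-in scaling. Compared with 6 h, PSMB8 and PSMB9 were higher at 24 h by 0.84 and 0.83, and both were called under every scaling tried, spike-in scaling included. The summed T cell markers were likewise lowest at 6 h (1.37 to 1.46 TPM) and highest at 24 h (2.75 to 3.8 TPM), with CD3D at 0 throughout, and their part in these values was not tested.

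**Figure D3:**
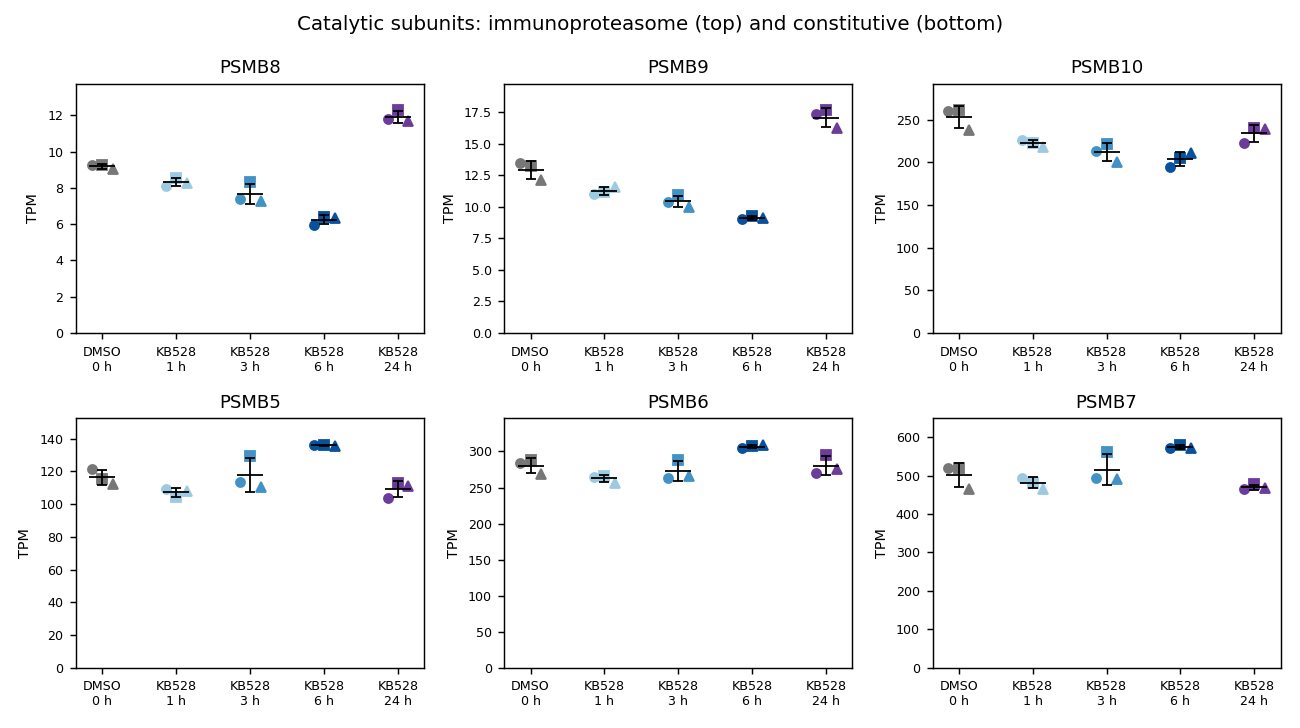
TPM of the immunoproteasome subunits PSMB8, PSMB9 and PSMB10 (top) and of the constitutive subunits they replace, PSMB5, PSMB6 and PSMB7 (bottom), in DMSO and at 1, 3, 6 and 24 h of KB528; points are libraries (circle, square and triangle for replicates 1, 2 and 3), bars mean ± SD (n = 3). PSMB8 and PSMB9 are lowest at 6 h (6.23 and 9.14 TPM) and highest at 24 h (11.9 and 17.1 TPM), while PSMB5, PSMB6 and PSMB7 are highest at 6 h, a rise not called with median-ratio or spike-in scaling.

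A ratio of 2 subunits within a library does not depend on how libraries are scaled. On the log2 scale the ratio of PSMB8 to PSMB5 was -3.66 ± 0.043 in DMSO, -3.69 ± 0.076 at 1 h, -3.94 ± 0.021 at 3 h, -4.45 ± 0.058 at 6 h, and -3.20 ± 0.056 after 24 h (SD, n = 3 each). The ratio of PSMB9 to PSMB6 was -4.44 ± 0.037, -4.54 ± 0.068, -4.71 ± 0.035, -5.07 ± 0.021 and -4.04 ± 0.064 in the same order. For PSMB10 and PSMB7 it was -0.99 ± 0.018, -1.11 ± 0.017, -1.28 ± 0.068, -1.49 ± 0.058 and -1.005 ± 0.051. The mean ratio was lowest at 6 h for all 3 pairs, and at 24 h every library was above DMSO for PSMB8 and PSMB9. In 9 of the 12 comparisons with DMSO the libraries of the 2 groups did not overlap, which gave the smallest p that an exact two-sided permutation test of 3 against 3 allows, 0.1 (0.133 after Benjamini-Hochberg adjustment over the 12), so no call can be made from them.

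**Figure D4:**
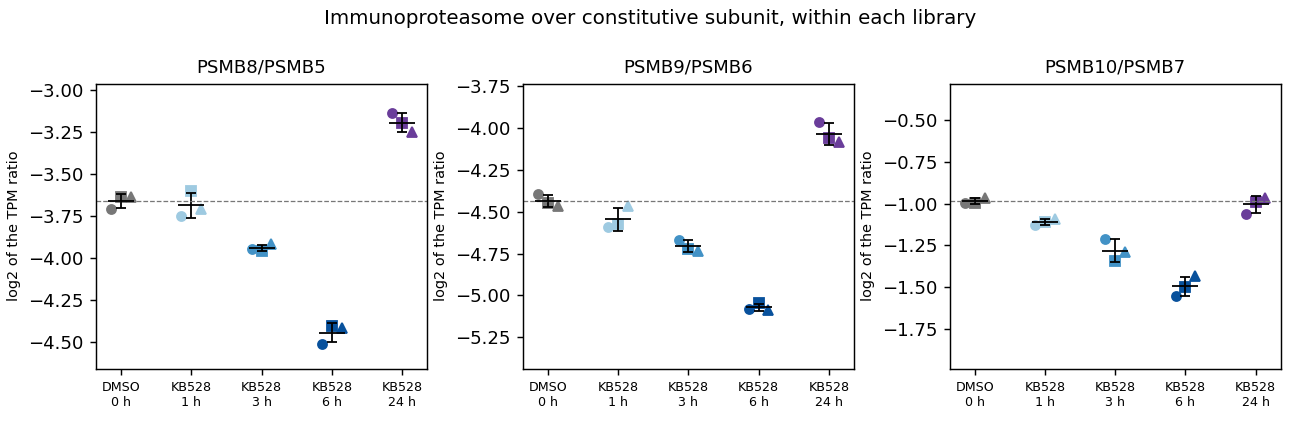
Log2 of the TPM ratio of each immunoproteasome subunit to the constitutive subunit it replaces, within each library, in DMSO and at 1, 3, 6 and 24 h of KB528; points are libraries, bars mean ± SD (n = 3), and the dashed line is the DMSO mean. Each panel spans 1.7 log2 units and none starts at 0; all 3 ratios are lowest at 6 h (-4.45, -5.07 and -1.49).

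In the 19S base, the 6 ATPases PSMC1 to PSMC6, which form the ring that unfolds substrates, were all higher at 6 h, by 0.24 to 0.47, and none was called at 1 h or 3 h (0 of 6 each by limma; at an unadjusted p under 0.05, 0 at 1 h and 1 at 3 h, PSMC5). PSMC6 had the largest value among them, with 82.6, 82.9 and 82.6 TPM at 6 h, against 65.9, 55.5 and 57.5 TPM in DMSO (0.47, SE 0.0648, adjusted p = 1.19e-05). The 6 h libraries of each of the 6 genes lay above all of its DMSO libraries. PSMC2, PSMC3 and PSMC6 were called higher at 6 h under all alternatives, PSMC1 under all but the length correction, PSMC5 under all but spike-in scaling, and PSMC4 under all but median-ratio and spike-in scaling. At 24 h 4 were still higher (PSMC1, PSMC2, PSMC3 and PSMC6, 0.12 to 0.18) and PSMC4 was lower (-0.15, adjusted p = 0.00274). The 4 higher calls were made with neither median-ratio scaling nor the length correction, under both of which the 4 values were below 0. Between 24 h and 6 h all 6 were lower at 24 h, by 0.17 to 0.39 in size, PSMC4 and PSMC6 also with spike-in scaling. PSMC1, PSMC2 and PSMC6 at 24 h also lost their calls without DMSO replicate 2 (adjusted p = 0.0864, 0.122 and 0.111), DMSO replicate 3 (0.089, 0.138 and 0.0707) or 24 h replicate 3 (0.0647, 0.0643 and 0.0682). Leaving out 24 h replicate 1 ended the calls of PSMC1 and PSMC2 (0.0594 and 0.174), and leaving out 24 h replicate 2 that of PSMC1 (0.0565).

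Of the 3 other base subunits, PSMD1 and PSMD2, large scaffold proteins, were higher at 6 h (0.22 and 0.33) and at 24 h (0.12 and 0.21), and PSMD4, a ubiquitin receptor, was called at neither (0.062 and 0.088). PSMD2 had 447, 472 and 491 TPM at 6 h and 433, 442 and 428 TPM at 24 h, against 370.5, 350.1 and 405 TPM in DMSO (adjusted p = 3.42e-05 and 0.00143). Both times were separated from DMSO in every library. The 24 h calls of PSMD1 and PSMD2 were lost with median-ratio scaling and with the length correction. Under that correction PSMD2 was at -0.027, and PSMD1 was lower (-0.12, adjusted p = 0.00965). PSMD1 at 24 h also fell short without DMSO replicate 2 (adjusted p = 0.0963) or 24 h replicate 1 (0.094).

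The lid changed at 3 h and most at 6 h. At 3 h 5 of its 8 genes were higher (PSMD6, PSMD7, PSMD11, PSMD12 and PSMD14, 0.13 to 0.16) and PSMD13 was lower (-0.13), and at 6 h 7 of 8 were higher, with PSMD13 the exception. PSMD11, a structural lid subunit, had 102, 91.9 and 105 TPM in DMSO, 106, 109 and 108 TPM at 1 h, 109.6, 106 and 113 TPM at 3 h, 137, 139 and 146 TPM at 6 h and 106, 106 and 104 TPM at 24 h. The libraries of 1, 3 and 6 h lay above all DMSO libraries and those of 24 h did not. PSMD11 rose by 0.49 at 6 h (SE 0.0476, adjusted p = 3e-07). PSMD12, its neighbour in the lid, had 99.3, 86.7 and 97.7 TPM in DMSO, 98.2, 103 and 98.8 TPM at 1 h, 102, 103 and 104 TPM at 3 h, 124, 128 and 124 TPM at 6 h and 94.6, 94.8 and 95.2 TPM at 24 h. The 24 h libraries fell inside the DMSO range. PSMD12 rose by 0.40 at 6 h (SE 0.0459, adjusted p = 1.63e-06). PSMD14, the deubiquitinating enzyme of the lid, rose by 0.40 at 6 h (adjusted p = 6.51e-06), and its partner PSMD7 by 0.26 (0.000117).

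At 24 h 0 of the 8 lid genes were higher than DMSO by limma, also at an unadjusted p under 0.05, and 1, PSMD13, was lower (-0.17, adjusted p = 0.00307). Between 24 h and 6 h all 8 were lower at 24 h (-0.41 to -0.15). With median-ratio scaling or the length correction all 8 were called lower than DMSO at 24 h, and with spike-in scaling, which called 0 members of any class at 24 h (1 at an unadjusted p under 0.05), none was. At 6 h the median-ratio scale kept 4 of the 7 higher calls (PSMD6, PSMD11, PSMD12 and PSMD14), which are the 4 that spike-in scaling also kept. The 5 higher calls at 3 h rested on small differences: with spike-in scaling all 5 changed sign, in a fit of only the 3 h and DMSO libraries all 5 and PSMD13 lost their calls (adjusted p 0.082 to 0.139), and each was lost without at least 1 library. PSMD11 was lost without DMSO replicate 2 (adjusted p = 0.0946) or 3 h replicate 3 (0.0787). PSMD12 was lost without DMSO replicate 2 (0.129), 3 h replicate 2 (0.0532) or 3 h replicate 3 (0.0775). PSMD6 was lost without DMSO replicate 3 (0.0687) or 3 h replicate 2 (0.0748), and PSMD7 without 3 h replicate 2 (0.0702). PSMD14 was lost without DMSO replicate 2 (0.117), DMSO replicate 3 (0.0807) or 3 h replicate 2 (0.165). The lower call of PSMD13 at 3 h was lost without DMSO replicate 1 (0.0919) or 3 h replicates 1 (0.09) or 3 (0.0898), and with median-ratio scaling. Replicate 2 of 3 h stood apart in the core genes too, with a summed 20S level of 4861 TPM beside 4337 and 4218 TPM in the other 3 h libraries. Without it the calls among all members at 3 h were 4 higher and 15 lower.

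The summed TPM of the 19S base and lid, divided by that of the 20S rings, had a higher mean in every treated group than in DMSO. The ratio was 0.673, 0.656 and 0.734 in the DMSO libraries, 0.734, 0.742 and 0.719 at 1 h, 0.733, 0.680 and 0.757 at 3 h, 0.759, 0.773 and 0.780 at 6 h and 0.744, 0.737 and 0.744 at 24 h. Libraries of 6 h and 24 h lay above all DMSO libraries, and those of 1 h and 3 h overlapped them. The 2 sets differ in length, with a median transcript of 1012 bases for the 20S genes and 1991 bases for the 19S genes, and the part of length in this ratio was not tested.

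The 3 chaperones that assemble the 19S base did not move together. PSMD9 had 36.2, 34.1 and 34.7 TPM in DMSO, 38.9, 36.9 and 34.4 TPM at 1 h, 42.6, 42.0 and 43.2 TPM at 3 h, 48.9, 50.2 and 51.6 TPM at 6 h and 37.6, 41.0 and 41.1 TPM at 24 h. It lay above DMSO in every library of 3, 6 and 24 h. PSMD9 rose by 0.28 at 3 h (SE 0.0508, adjusted p = 0.00027) and by 0.51 at 6 h (SE 0.0508, adjusted p = 4.22e-07). At 24 h it rose by 0.18 (adjusted p = 0.00466), with a change of sign under median-ratio scaling and length correction (-0.012 and -0.032). PSMD5 had 22.6, 19.9 and 22.9 TPM in DMSO, 23.3, 25.5 and 24.6 TPM at 1 h, 17.8, 17.2 and 18.4 TPM at 3 h, 19.4, 17.4 and 18.9 TPM at 6 h and 28.9, 27.5 and 26.6 TPM at 24 h. It was below all DMSO libraries at 3 h and 6 h and above them at 24 h. PSMD5 fell by 0.28 at 3 h (adjusted p = 0.00124) and by 0.22 at 6 h (0.0048), both lost with spike-in scaling (adjusted p = 0.0561 and 0.887). It rose by 0.33 at 24 h (SE 0.0611, adjusted p = 0.000201), a call lost with spike-in scaling and with the length correction. An antisense gene at the PSMD5 locus, PSMD5-AS1, had 9.04 to 11.3 TPM in DMSO, 9.46 to 9.50 TPM at 1 h, 5.94 to 7.06 TPM at 3 h, 6.42 to 6.89 TPM at 6 h and 11.9 to 12.8 TPM at 24 h. The sources used here do not state whether counting used strand, so reads of these 2 genes may not be separated. PSMD10, also known as gankyrin, was lower at 3 h (-0.18, adjusted p = 0.0223) and higher at 6 h (0.16, 0.0282) and 24 h (0.24, 0.00283). Its 6 h call was lost without DMSO replicate 2 (0.0652) or 3 (0.113) and without 6 h replicate 1 (0.0826) or 3 (0.0796). Both higher calls were lost with median-ratio scaling. Its 3 h call was lost without DMSO replicate 1 (0.113) or 3 h replicate 1 (0.0847) or 3 (0.102).

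Among the activators, the interferon-inducible pair and the nuclear activator differed in direction. PSME3, which encodes the nuclear activator PA28-gamma, had 118, 106 and 132 TPM in DMSO, 135, 139 and 137 TPM at 1 h, 141, 134 and 146 TPM at 3 h, 164, 168 and 176 TPM at 6 h and 111, 108 and 104 TPM at 24 h. DMSO replicate 3 was the highest of its group, and the libraries of 1, 3 and 6 h lay above it. PSME3 was higher at 1 h (0.21, SE 0.0616, adjusted p = 0.023), 3 h (0.25, 0.00313) and 6 h (0.52, SE 0.0616, adjusted p = 2.75e-06), and at 24 h it was not called (-0.14, 0.0599). The 1 h call was lost without DMSO replicate 1 (adjusted p = 0.0627) or 2 (0.107) and without 1 h replicate 2 (0.0753) or 3 (0.0587). PSME1 and PSME2, the subunits of the interferon-inducible cap, were lower at 3 h (-0.13 and -0.15) and 6 h (-0.18 and -0.20), but not with spike-in scaling, under which PSME1 was at 0.0090 at 6 h. The 3 h calls were also lost in a fit of only the compared groups (adjusted p = 0.0623 and 0.0528). PSME2 had 314, 325 and 307 TPM at 24 h, against 367, 375 and 343 TPM in DMSO, and stayed lower there (-0.20, SE 0.0418, adjusted p = 0.000639). PSME1 had 275, 279.8 and 277 TPM at 24 h, against 276, 277 and 275 TPM in DMSO, and was not called (0.0065, 0.88). PSME4, the largest activator, was called at no time (-0.097 to 0.13). PSMF1, an inhibitor of the core in vitro, was called at 6 h, when it had 78.0, 82.9 and 89.1 TPM, against 62.8, 60.3 and 72.0 TPM in DMSO (0.36, SE 0.0611, adjusted p = 0.0001).

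PSMG4 showed the largest change of any member against DMSO. Together with PSMG3 it forms a chaperone for the assembly of the alpha ring, as PSMG1 does with PSMG2. PSMG4 had 137, 129.6 and 119 TPM in DMSO, 110.1, 106 and 104 TPM at 1 h, 92.6, 101 and 94.6 TPM at 3 h, 72.7, 72.7 and 75.9 TPM at 6 h and 94.8, 98.6 and 92.3 TPM at 24 h. Every treated library lay below every DMSO library. PSMG4 was lower at 1 h (-0.27, SE 0.0506, adjusted p = 0.00156), 3 h (-0.42, SE 0.0506, adjusted p = 5.27e-06), 6 h (-0.79, SE 0.0506, adjusted p = 3.93e-09) and 24 h (-0.43, SE 0.0506, adjusted p = 3.06e-06). The 3 h and 6 h calls held under every alternative, spike-in scaling included, while those at 1 h and 24 h held under all but that one. PSMG3, its partner, had 118, 122 and 111 TPM in DMSO, 121, 124 and 120.0 TPM at 1 h, 141, 138 and 139 TPM at 3 h, 138, 144 and 144 TPM at 6 h and 132, 134 and 126 TPM at 24 h. Its libraries of 3, 6 and 24 h lay above all DMSO libraries. PSMG3 was higher at 3 h (0.25, SE 0.0401, adjusted p = 7.68e-05), 6 h (0.28, 1.75e-05) and 24 h (0.17, 0.00178), the last with a change of sign under median-ratio scaling (-0.033). The TPM ratio of PSMG3 to PSMG4 was 0.910 ± 0.043 in DMSO, 1.14 ± 0.038 at 1 h, 1.45 ± 0.077 at 3 h, 1.92 ± 0.049 at 6 h, and 1.38 ± 0.020 after 24 h (SD, n = 3 each). PSMG2 was higher at 6 h (0.18, 0.00779) and 24 h (0.16, 0.0145), neither with median-ratio scaling. Its 24 h call was lost without 24 h replicate 1 (0.0535). PSMG1 was lower at 24 h (-0.13, 0.00923).

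**Figure D5:**
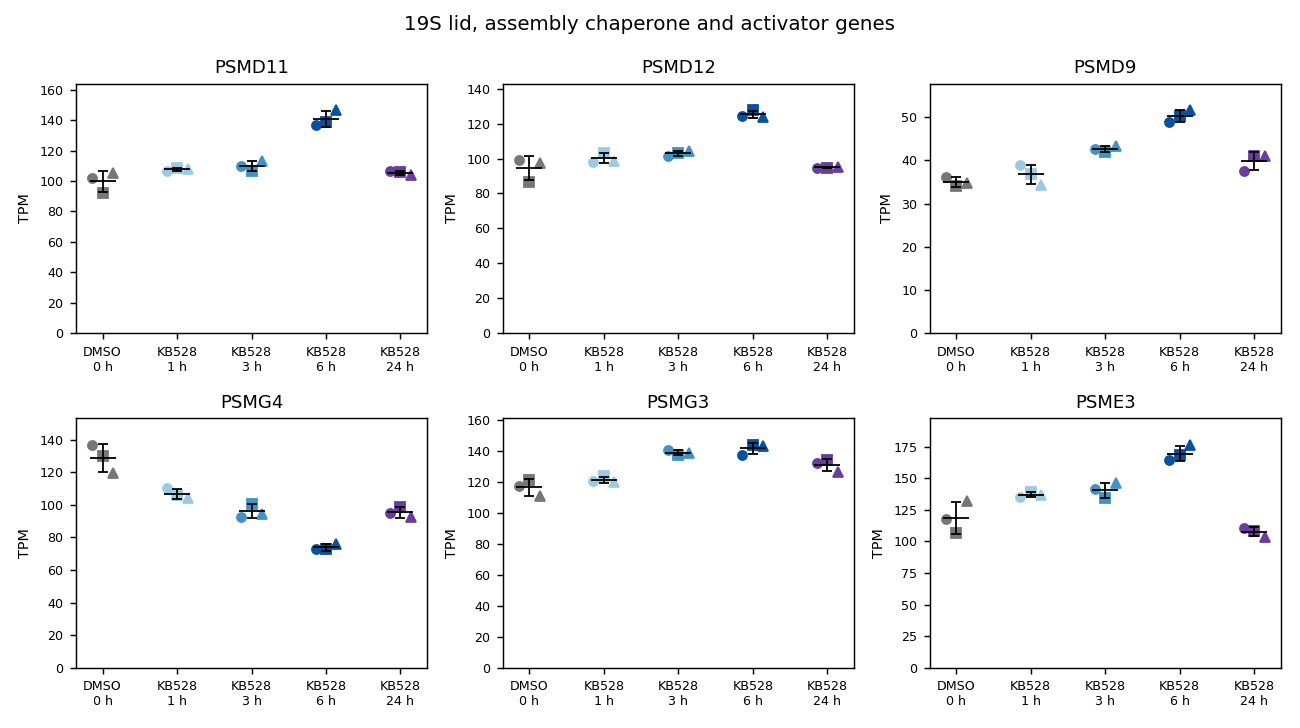
TPM of the lid genes PSMD11 and PSMD12, the base chaperone PSMD9, the alpha ring chaperones PSMG4 and PSMG3 and the activator PSME3 in DMSO and at 1, 3, 6 and 24 h of KB528; points are libraries (circle, square and triangle for replicates 1, 2 and 3), bars mean ± SD (n = 3). All but PSMG4 are highest at 6 h, and PSMG4 is lowest there (73.8 TPM, against 128 TPM in DMSO).

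The step from 3 h to 6 h and the step from 6 h to 24 h had the most calls. At 6 h compared with 3 h, 29 members were higher and 3 lower (63.0% and 6.52%), where 42.3% and 13.7% of all genes were called. At 24 h compared with 6 h, 6 were higher and 26 lower (13% and 56.5%), where 41.0% and 26% were called. Between 3 h and 1 h, 4 were higher and 3 lower at 3 h, beside 15.2% and 31.8% of all genes. Without 1 h replicate 2 or 3 that split was 2 and 3, without 3 h replicate 2 it was 2 and 5, and without 3 h replicate 3 it was 8 and 2. Of the 27 members higher at 6 h than in DMSO, 25 were also higher at 6 h than at 3 h, and 22 were lower at 24 h than at 6 h (92.6% and 81.5%). Of the 5327 genes of any kind that were higher at 6 h than in DMSO, 66.4% and 45.4% did so, and these shares reuse the 6 h libraries by which the genes were chosen. At 24 h against DMSO 11 of the 27 were called higher, 2 lower (PSMB2 and PSMC4) and 14 neither. The 6 members higher at 24 h than at 6 h were PSMB8, PSMB9, PSMB10, PSMD5, PSME1 and PSMG4, which are among the 8 that were lower at 6 h than in DMSO. These steps share the 6 h libraries. The 3 h to 6 h step moved with the scaling, to 10 higher and 8 lower under median-ratio scaling, where 25.9% and 30.0% of all genes were called. The 24 h to 6 h comparison kept 14 lower and 2 higher calls under every scaling tried, and the share of all genes that kept theirs was not counted.

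Genes that act with the proteasome but carry other names were counted as a list of 38, all of which were tested. Of these, 7 were higher and 4 lower after 1 h of KB528 (all genes: 15% and 7.57%), and 9 and 12 after 3 h (24.9% and 32.0%). The counts were 15 and 5 after 6 h (44.4% and 24.5% of all genes) and 18 and 5 after 24 h (56.1% and 15.2%). ADRM1, a ubiquitin receptor of the base, had 381 ± 17.5 TPM at 6 h, against 291 ± 2.95 TPM in DMSO (SD, n = 3 each; 0.39, adjusted p = 8.48e-07), and was lower at 24 h (-0.23, 0.000126). TXNL1, a thioredoxin bound to the 26S particle, was higher at 6 h (0.53, adjusted p = 1.06e-08) and not called at 24 h (0.045). USP14, a deubiquitinating enzyme of the proteasome, VCP, the unfoldase that delivers substrates to it, and its adaptor NPLOC4 were higher at 6 h by 0.56, 0.58 and 0.65 (adjusted p = 1.04e-06, 4.34e-08 and 2.36e-07). The 6 h calls of these 5 genes held under every alternative, and the 24 h call of ADRM1 under all but spike-in scaling. POMP, the maturation factor of the core, was called at no time against DMSO.

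NFE2L1 encodes NRF1, a transcription factor that raises proteasome genes when proteasome activity is low. It had 94.9 ± 5.30 TPM at 6 h, against 61.0 ± 6.48 TPM in DMSO (SD, n = 3 each), and rose by 0.63 (SE 0.0854, adjusted p = 9.32e-06), a call that held under every alternative. Its value at 24 h (0.29, adjusted p = 0.00621) was not called with median-ratio scaling, spike-in scaling or the length correction. NGLY1, the enzyme that removes sugars from NRF1, was lower at 3 h (-0.45, 2.85e-06) and 6 h (-0.70, 1.76e-08) under every alternative, and DDI2, the protease that cleaves it, was called at no time against DMSO. NFE2L2, which encodes NRF2, and MAFG were both lower at 1 h and 3 h and higher at 6 h and 24 h on the deposited scale. At 6 h they had 46.8 and 44.3 TPM, against 37.3 and 33.9 TPM in DMSO, and these 6 h calls held under every alternative. With spike-in scaling their other calls were lost, but for that of MAFG at 3 h. The 3 h call of NFE2L2 was also lost without DMSO replicate 1 (adjusted p = 0.071) or 3 (0.153) or 3 h replicate 1 (0.109). It was lost too with spike-ins left out of the total (0.0727) and in a fit of only the compared groups (0.132). Such a fit at 1 h lost the 1 h call of NFE2L2 (0.0782). The 24 h call of MAFG was lost with the length correction (0.257). The match to TGACNNNGC, the motif NRF1 shares with NRF2, was found in 13 of the 40 tested members with a promoter in the table (32.5%), beside 13.6% of all 27305 promoters of that length (250 bases before to 50 after the start). It was found in 6 of 24 members higher at 6 h, 4 of 8 lower at 6 h and 3 of 8 not called at 6 h.

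Genes of antigen processing gave values beside those of the immunoproteasome. NLRC5, an activator of MHC class I genes, was lower at 3 h (-0.36, adjusted p = 0.00248) and 6 h (-0.37, 0.0014), the 6 h call being lost with spike-in scaling. At 24 h it was higher (0.31, 0.00537), but not with median-ratio scaling, spike-in scaling or the length correction. TAP1, a subunit of the peptide transporter encoded next to PSMB9, was lower at 3 h (-0.25, 0.00318), not called at 6 h (-0.0085) and higher at 24 h (0.42, 2.35e-05), both calls held under all but spike-in scaling, and TAPBP, which loads the peptides, was higher at 24 h with the same exception (0.42, 0.000448). IRF1, an interferon-response factor, had 11.2 ± 0.756 TPM at 3 h, against 31.7 ± 3.25 TPM in DMSO (SD, n = 3 each; -1.42, adjusted p = 1.27e-10), and was not called at 6 h or 24 h.

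Matches to the interferon-stimulated core were found in 6 of the 40 member promoters (15%), beside 3.65% of all promoters: PSMB10, PSME1, PSME2, PSMG4, PSMB4 and PSMA4. Of these PSMB10, PSME1, PSME2 and PSMG4 are among the 8 members with a promoter that were lower at 6 h, PSMB4 was higher at 6 h and PSMA4 was not called. CCAAT was found in 18 of 40 (45.0%, beside 35.7% of all promoters). These were 12 of the 24 higher at 6 h, 2 of the 8 lower and 4 of the 8 not called. CACGTG was found in 3 of 40 (7.50%, beside 7.43%). Promoters were matched for 42 of the 48 members by symbol. PSMA7, PSMB1, PSMB6, PSMB7, PSMD4 and PSMG3 were not matched.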

How the data were processed

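The deposited table held TPM values made by the authors for 15 libraries of polyadenylated RNA, and every column summed to 1000000. Reads were aligned with STAR to hg19 and counted with featureCounts, per the submitters' processing notes, which also name FastQC and MultiQC without versions. The strand setting and the treatment of reads that map to several genes are not given in the sources used here. The libraries used a strand-specific NEB mRNA kit, per the labels' protocols. The table names the DMSO libraries as untreated at 0 h, and the sample titles name DMSO. TPM hold no read depth, so no counting error is given, and a share of the total can move when other transcripts move.

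The 92 ERCC rows were left out of tests. The 12002 genes that averaged 1 TPM or more were put on the log2(TPM + 1) scale. They were fitted over all 5 groups with limma 3.58.1 (R 4.3.3; lmFit and eBayes with trend), with Benjamini-Hochberg adjustment over all genes within each comparison and a threshold of 0.05. Sums, ratios, motifs and figures used Python 3.11.15, numpy 2.4.6, pandas 2.3.3 and matplotlib 3.10.9. The fit was also run on simulated data as a check of the code. That check used independent noise and no shift in library scale, so it lends no support to the calls reported here. Other settings tried were a minimum of 5 TPM or none, a pseudocount of 0.1, median-ratio and spike-in scaling, and a loess correction for transcript length. No variance trend, only the compared groups, a replicate block and each library left out in turn were also tried. Leaving spike-ins out of the total was tried too, chosen after seeing the data. Lengths came from GENCODE, for 94.3% of genes tested. For each symbol the longest protein-coding transcript was used, or the longest of any kind where there was none. The members and lists were chosen with earlier results of these data known. Values in every library are given for PSMB5 to PSMB10 and, at each time against DMSO, for the 3 members with the smallest adjusted p in each direction. Other members are given by class, with counts and ranges; the further members named with values, such as PSMC6, PSMD2, PSMD10, PSME1 and PSMF1, were chosen after their values were seen. Non-members named with values come from the list of 38, apart from the cell type markers and PSMD5-AS1.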

Additional observations from a re-analysis of the deposited data

Results flagged for a closer look

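For 6 members, values against DMSO were called in opposite directions at consecutive times and the difference between the times was itself called by limma (adjusted p over all 12002 genes). The call of the difference adds no support of its own. Values of opposite sign always differ by more than the size of either, and the standard error is the same. PSMB8 was at 0.343 at 24 h and -0.494 at 6 h on the log2 scale, a difference of 0.837 (adjusted p = 7.56e-09). PSMB9 was at 0.375 at 24 h and -0.459 at 6 h, a difference of 0.834 (adjusted p = 5.89e-09). PSMD5 was at 0.329 at 24 h and -0.220 at 6 h, a difference of 0.550 (adjusted p = 1.29e-06), not called with spike-in scaling. PSMC4, an ATPase, was at -0.146 at 24 h and 0.242 at 6 h, a difference of -0.388 (adjusted p = 2.91e-07). PSMB2, a beta ring subunit, was at -0.111 at 24 h and 0.193 at 6 h, a difference of -0.304 (adjusted p = 1.03e-05). PSMD10 was at 0.164 at 6 h and -0.179 at 3 h, a difference of 0.342 (adjusted p = 0.000273). Of the 6 differences, all but that of PSMD5 were called under every scaling tried. The opposite calls against DMSO were less stable. With spike-in scaling 0 members were called at 24 h, and PSMD10 lost its 3 h and 6 h calls. None of the 6 members thus kept its opposite calls on that scale. With median-ratio scaling PSMB2, PSMC4 and PSMD10 lost their 6 h calls.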

How the results depend on the processing

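No proteasome gene called on the deposited scale changed sign when a library was left out, or under another pseudocount, filter, variance model or choice of groups; median-ratio scaling, spike-in scaling and the length correction did change signs, and the cause was not tested. The number of members called became 10 at 1 h, 33 at 24 h, 16 between 3 h and 1 h and 18 between 6 h and 3 h with median-ratio scaling, where the main counts were 5, 21, 7 and 32. With spike-in scaling it became 0 at 1 h (0 also at an unadjusted p under 0.05), 1 at 3 h, 14 at 6 h, 0 at 24 h (1 at an unadjusted p), 1 between 3 h and 1 h and 16 between 24 h and 6 h, against 5, 18, 35, 21, 7 and 32. The length correction gave 32 at 24 h and 20 between 3 h and 1 h, and leaving spike-ins out of the total, an alternative chosen after seeing the data, gave 17 between 3 h and 1 h. Fits of only the compared groups gave 3 at 1 h and 8 at 3 h, losing PSMB9 and PSME3 at 1 h, the lid genes, PSMA5, PSMD10, PSME1 and PSME2 at 3 h, PSMA5 at 6 h, and PSMB2, PSMC2 and PSMD1 at 24 h. Leaving out 1 library gave 1 to 16 calls at 1 h (1 without DMSO replicate 1, 2 without DMSO replicate 2, 16 without DMSO replicate 3, 3 without 1 h replicate 2 and 2 without 1 h replicate 3), 14 to 20 at 3 h, 33 to 35 at 6 h, 17 to 26 at 24 h, 5 to 10 between 3 h and 1 h, 26 to 36 between 6 h and 3 h and 29 to 33 between 24 h and 6 h. Splits into higher and lower moved too, here beside the shares of all genes called. With median-ratio scaling they were 14 and 2 between 3 h and 1 h (24.5% and 29.7% of all genes). Between 24 h and 6 h they were 6 and 29 on that scale (39.5% and 31.8%). Between 6 h and 3 h the length correction gave 20 and 8 (27.7% and 29%). Spike-in scaling gave 38 and 0 for that step, where 61.3% and 1.93% of all genes were called. A replicate block gave 6, 18, 35 and 21 calls at 1, 3, 6 and 24 h and 6, 31 and 32 between consecutive times; same-numbered libraries deviated together, with a correlation over 0.1, in 7 of 30 pairs of groups (-0.157 to 0.430), so the numbers were not taken to pair libraries.

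Called values that changed sign with median-ratio scaling were PSMB6 at 6 h (-0.025), at 24 h PSMC1 (-0.0581), PSMC2 (-0.0772), PSMC3 (-0.0733), PSMC6 (-0.0211), PSMD1 (-0.0775), PSMD9 (-0.0124), PSMG2 (-0.0397) and PSMG3 (-0.0334), and between 6 h and 3 h PSMB1 (-0.0244), PSMB7 (-0.00182), PSMC5 (-0.000874), PSMD13 (-0.0517), PSMD7 (-0.0436) and PSME4 (-0.00221). With spike-in scaling they were at 3 h PSMD11 (-0.0813), PSMD12 (-0.0955), PSMD14 (-0.0821), PSMD6 (-0.0635) and PSMD7 (-0.0796), at 6 h PSMA5 (0.0551) and PSME1 (0.00903), between 3 h and 1 h PSMC3 (-0.0651) and PSMD6 (-0.0347), between 6 h and 3 h PSMB8 (0.104), PSMB9 (0.203) and PSMG4 (0.0342), and between 24 h and 6 h PSMB10 (-0.00822) and PSME1 (-0.0198). With the length correction they were at 24 h PSMC1 (-0.126), PSMC2 (-0.104), PSMC3 (-0.00829), PSMC6 (-0.00477), PSMD1 (-0.115), PSMD2 (-0.0272) and PSMD9 (-0.0317), and between 6 h and 3 h PSMA4 (-0.00925), PSMB2 (-0.012) and PSME4 (-0.068).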
